A study of Peromyscus maniculatus with 6 samples.

Results

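The genes described here regulate or carry out apoptosis, the programmed death of cells, in cultured ear cells of the deer mouse (Peromyscus maniculatus) under endoplasmic reticulum (ER) stress. They were chosen by symbol from a list of 39 genes: BH3-only proteins, multidomain BCL2 proteins, caspases, inhibitors of apoptosis (IAPs), death receptors with their adaptors, and 4 other regulators. Of these, 29 symbols were found among the 24281 genes of the deposited table, and 27 of the 29 passed a filter on low counts. The symbols Bcl2l11, Hrk, Bcl2l2, Mcl1, Bcl2a1, Casp4, Casp6, Diablo, Tnfrsf10b and Mdm2 matched no name and were not analysed here.

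Cells came from ear punches of 3 animals of the BW stock, BW35770, BW35772 and BW35773, at 4 weeks of age. Each animal gave 1 control library and 1 library from cells treated with tunicamycin for 5 h, which blocks N-linked glycosylation and so loads the ER with unglycosylated protein. The labels give the dose as 5 mg per mL, a value that could not be checked, and RNA was taken directly after treatment, after 24 h of growth at 300000 cells per well. What the control wells received is not given here, and each animal is represented by 1 cultured cell population from minced and digested ear tissue.

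In the intrinsic pathway, BH3-only proteins such as PUMA (Bbc3) neutralise the survival proteins BCL2 and BCL-XL or activate the pore formers BAX and BAK, cytochrome c leaves the mitochondria, and APAF1 then activates caspase-9. In the extrinsic pathway, death receptors such as FAS recruit the adaptor FADD and caspase-8, and FLIP (Cflar) competes with caspase-8 in that complex. The IAPs cIAP1 and cIAP2 (Birc2 and Birc3) are ubiquitin ligases of the tumour necrosis factor (TNF) receptor complex, and XIAP binds and blocks caspases. In ER stress, the transcription factor CHOP (Ddit3) is known for raising BH3-only and death receptor genes.

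Libraries held 37852385 to 49352126 counts on genes and 46953 to 69256 counts on the 29 members, so counting error was small for most members. As a check that the treatment acted, Ddit3 was higher by 3.95 ± 0.23 on the log2 scale (SE, with an edgeR adjusted p of 0.000488). Fibroblast markers, 11 of 12 in the table, summed to 15665 to 21329 CPM (normalised counts scaled to a common library size by edgeR) in controls and 15465 to 19025 CPM with tunicamycin. A large part of this sum was Vim, at 7494 to 9763 CPM over all libraries. Some of these markers differed between animals. Thy1 stood at 752 and 827 CPM in BW35770 and at 58 to 118 CPM in the others, and Col3a1 was lowest in BW35770. Cartilage cell markers, 6 of 7 in the table, summed to 1867 to 8342 CPM in controls and to 2073 to 8877 CPM with treatment, lowest in both libraries of BW35770. Of these, Col2a1 stood at 743 and 842 CPM in BW35770 and at 4095 to 6260 CPM in the other animals. In those other animals it lay above the fibroblast marker Col1a1, at 2555 to 3570 CPM. The cultures thus held strong cartilage marker expression beside that of fibroblasts. For immune cells, 3 of 5 measured markers stayed under 1 CPM in every library, with Cd3e at 0 throughout and a sum of 69.6 to 180.8 CPM that was mostly Cd68. Among 7 keratinocyte markers 6 stayed under 1 CPM, with Krt1 at 0 throughout, and the list summed to 2.65 to 23.0 CPM, mostly Krt14 at 2.23 to 22.7 CPM. Adipocyte markers summed to 25.8 to 139.7 CPM in controls and 30.5 to 123.4 CPM with treatment, with Lpl at 113.8 and 98.1 CPM in BW35770. Muscle and pericyte markers summed to 30.9 to 32.7 CPM in controls and 23.3 to 33.4 CPM with treatment. Endothelial markers, and those of melanocytes and Schwann cells, summed to at most 4.68 and 2.03 CPM. No marker of any list was called between treatments, and the part of these cells in the results below was not tested. The treated library of BW35772 stood apart on the first principal component, at 52.4 against -46.7 to 14.6 for the rest. The treated library of BW35773 did so on the third, at 51.3 against -21 to 4.3.

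After 5 h of tunicamycin, 3 of the 27 tested members rose and none fell in the main fit, which did not pair the animals. They were Birc3, Casp8 and Bbc3, 1 each from the IAPs, the caspases and the BH3-only genes, with folds of 4.32, 3.60 and 2.28. With the animals paired, Cflar was called higher as well (in edgeR, adjusted p = 0.00576). The multidomain BCL2 genes, the apoptosome genes Apaf1 and Casp9, and the receptors themselves did not pass the test. A gene was called, and is said to have risen or fallen, when its edgeR quasi-likelihood p-value was under 0.05 after Benjamini-Hochberg adjustment over the 13503 tested genes. Where no block is named, the fit did not pair the animals. Without the treated library of BW35772, 2 members were called higher, and without that of BW35773, 3.

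The 3 calls are 11.1% of the tested members, beside 1.78% called higher among all tested genes. No member was called lower by edgeR, DESeq2 or limma-voom, and 5 were higher and 0 lower when the edgeR p was left unadjusted. Without adjustment 1199 of all 13503 tested genes were higher and 896 lower at an edgeR p under 0.05. Among all tested genes 0.792% were called lower. The median log2 fold change was 0.10 over the members and -0.01 over all tested genes. In the fit with the replicate block (animal as a term, which compares each treated library with the control of its own animal), 4 members rose and 0 fell, Cflar being added. There 3.07% of all tested genes were higher and 2.4% lower. As RNA was measured in bulk, fewer cells of a type and less RNA per cell cannot be told apart in any of these values.

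**Figure D1:**
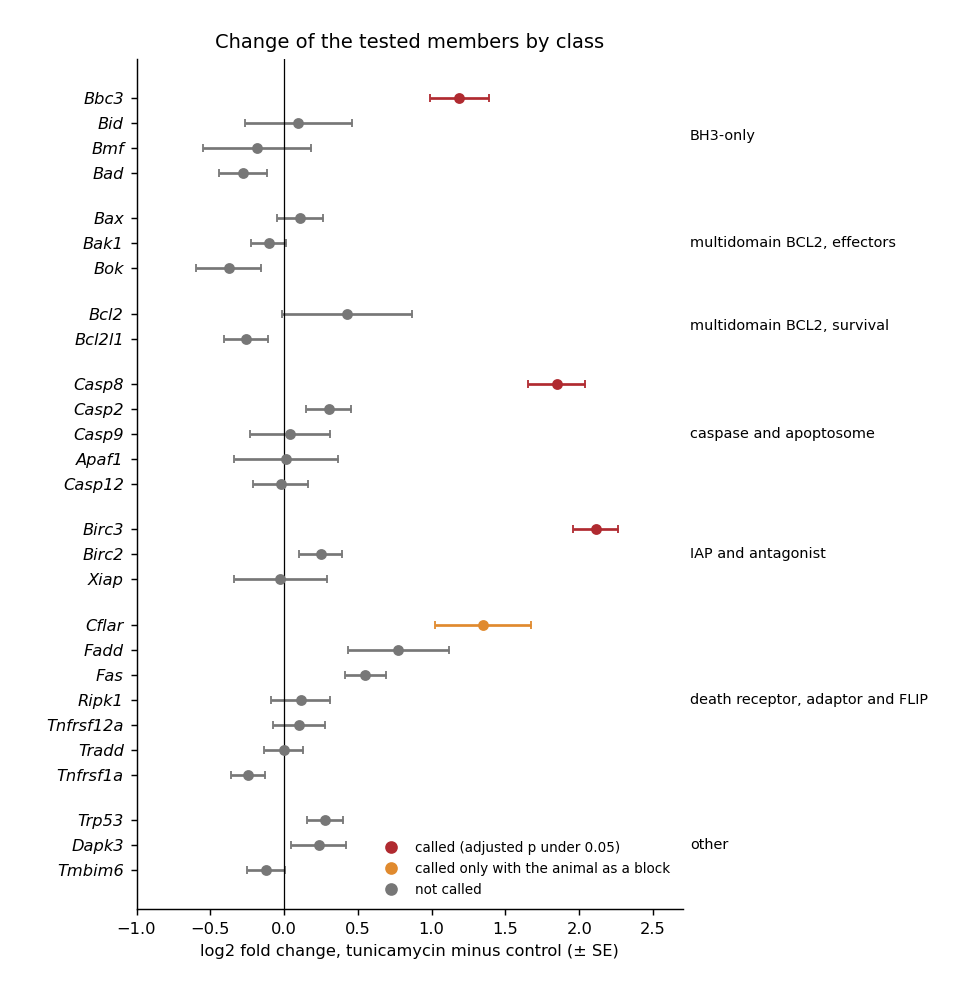
Log2 fold change (x axis, tunicamycin minus control, n = 3 libraries a group) of the 27 tested members (y axis), grouped by class. Points are edgeR estimates and bars are ± 1 SE. Birc3, Casp8 and Bbc3 stand at 2.11, 1.85 and 1.19, Cflar at 1.35 was called by edgeR only with the animal as a block, and all other members lie between -0.38 and 0.77.

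Of the 4 tested BH3-only genes, Bbc3 alone was called. Bbc3 (ENSPEMG00000014228, scaffold KI615844.1, bases 414740 to 419754, plus strand, 5 annotated exons), which encodes PUMA, stood at 3.21, 3.32 and 3.35 CPM in the controls of BW35770, BW35772 and BW35773. With tunicamycin it stood at 6.74, 7.87 and 7.93 CPM in the same order. The lowest treated library thus lay above every control, and the controls were within a narrow range of each other. Its log2 fold change was 1.19 ± 0.20 (SE, n = 3 a group, in edgeR adjusted p = 0.0288). The call was lost, in fits that did not pair the animals, when any 1 control was left out (in edgeR, adjusted p = 0.109 for BW35770, 0.151 for BW35772 and 0.156 for BW35773), and likewise for the treated library of BW35770 or BW35772 (0.0768 and 0.0584). It also did not hold in the fit with the block without both libraries of BW35770 (in edgeR, adjusted p = 0.227), where the log2 fold change of Bbc3 was 1.24. That fit called 74 genes higher and 37 lower over the whole table, against 415 and 324 in the blocked fit of all animals. The log2 fold change stayed between 1.17 and 1.26 in the fits without any 1 library.

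Other BH3-only genes gave no call. Bad, whose product is held inactive by growth factor signalling, was the most abundant of them, at 88.7, 86.8 and 85.1 CPM in controls and 68.3, 57.7 and 88.9 CPM with treatment. It was lower in the treated cells of BW35770 and BW35772 and slightly higher in those of BW35773, with a log2 fold change of -0.28 ± 0.16 (in edgeR, adjusted p = 0.497). With the block and without both libraries of BW35773, Bad was called lower (log2 fold change -0.45, edgeR adjusted p = 0.0485). Bid, which links caspase-8 to mitochondria, had a log2 fold change of 0.10 ± 0.36, and Bmf, which senses loss of attachment, of -0.18 ± 0.37. Pmaip1, the gene of NOXA and a known stress target, had 0 to 6 counts in a library and was not tested. Bik had 0 counts in all 6 libraries, which allows up to 3 counts in a library.

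Among multidomain BCL2 genes 0 of 5 tested members were called by edgeR, DESeq2 or limma-voom, beside 1.78% of all tested genes called higher and 0.792% lower by edgeR. None reached an unadjusted edgeR p under 0.05 without the replicate block. With the block 1 did, Bcl2l1, which was lower, as were 1413 of all 13503 tested genes at that threshold. The pore former Bax stood at 80.9, 74.3 and 83.6 CPM in controls and 86.9, 68.7 and 101.4 CPM with tunicamycin, so that the groups overlapped. Its log2 fold change was 0.11 ± 0.16 (in edgeR, adjusted p = 0.845), and that of Bak1, the other main pore former, was -0.11 ± 0.12 (0.781). Bok, a relative found at the ER, stood at 10.0, 9.29 and 10.9 CPM in controls and 7.23, 6.26 and 9.77 CPM with treatment. It was lower in all 3 animals, with overlapping groups, and was not called (log2 fold change -0.38 ± 0.22, edgeR adjusted p = 0.483). An unnamed gene on the opposite strand overlaps Bak1, with 32 to 81 counts in a library against 2494 to 2799 for Bak1.

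Of the survival genes, Bcl2l1, which encodes BCL-XL, was the main one measured. It stood at 90.7, 76.1 and 78.6 CPM in controls and at 81.3, 60.7 and 63.4 CPM with tunicamycin. It was lower in each animal, but the groups overlapped, and the log2 fold change of -0.26 ± 0.15 was not called (in edgeR, adjusted p = 0.482, and 0.232 with the replicate block). Bcl2 was scarce, at 1.39, 1.67 and 1.55 CPM in controls and 2.05, 3.14 and 1.00 CPM with treatment. It was higher in 2 animals and lower in BW35773, with a log2 fold change of 0.42 ± 0.44 (in edgeR, adjusted p = 0.753).

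Casp8 (ENSPEMG00000021544, scaffold KI615370.1, bases 8293170 to 8320172, minus strand, 10 annotated exons) encodes the initiator caspase of death receptors. It stood at 2.6, 2.576 and 2.652 CPM in controls and at 9.75, 9.13 and 9.33 CPM with tunicamycin. Differences within the animals were close to each other, at 1.89, 1.81 and 1.80 in log2 CPM. The log2 fold change was 1.85 ± 0.19 (in edgeR, adjusted p = 0.0045). The call held in all 6 fits without 1 library, where the largest edgeR adjusted p was 0.0464, but not in the blocked fit without both libraries of BW35770 (0.068). In that fit, which called few genes over the whole table, the log2 fold change of Casp8 was 1.82.

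The other caspases and Apaf1 were not called. Casp2, an initiator linked to the response to DNA damage, was higher in each animal and did not overlap between groups (11.94, 11.10 and 12.49 CPM against 15.80, 14.01 and 13.96 CPM), with a log2 fold change of 0.30 ± 0.15 (in edgeR, adjusted p = 0.405). Casp12, the caspase of the rodent ER membrane, was nearly the same in both libraries of each animal. It stood at 14.4, 10.8 and 12.4 CPM in controls and at 14.1, 10.7 and 12.2 CPM with treatment, which made a log2 fold change of -0.02 ± 0.19 (in edgeR, adjusted p = 0.978). Casp9, the initiator of the apoptosome, had a log2 fold change of 0.04 ± 0.27 and Apaf1, its scaffold, of 0.01 ± 0.35.

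**Figure D2:**
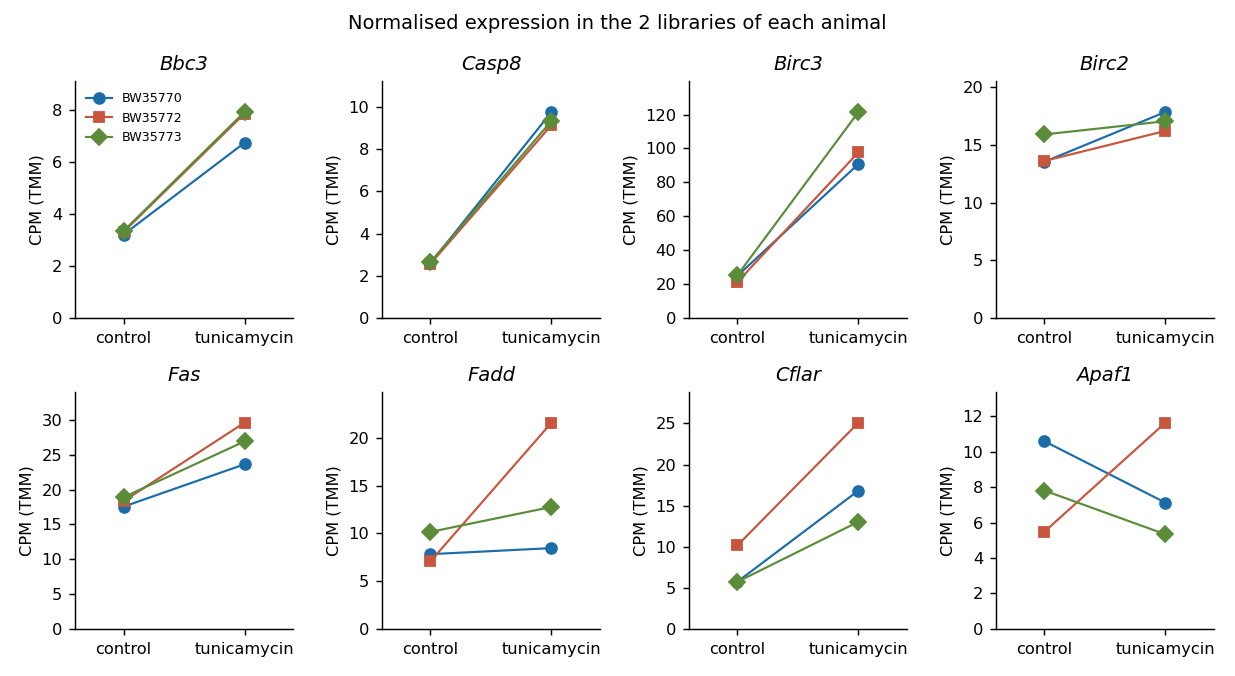
TMM-normalised CPM (y axis, linear from 0) of 8 members in the control and tunicamycin library of each animal (x axis), with a line joining the libraries of 1 animal. Bbc3, Casp8 and Birc3 are higher with treatment in each of the 3 animals, Birc3 most so in BW35773. Birc2 stays near its control level, and Fadd and Apaf1 differ between animals, with the treated library of BW35772 the highest.

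Birc3 (ENSPEMG00000020508, scaffold KI615526.1, bases 3175694 to 3191772, minus strand, 9 annotated exons), the gene of cIAP2 and a well-known target of NF-kB, had the largest change of all members. It went from 25.0, 21.3 and 25.3 CPM in controls to 90.8, 97.7 and 121.5 CPM with tunicamycin. The log2 fold change was 2.11 ± 0.15 (in edgeR, adjusted p = 0.000865), and the call held in the 6 fits without 1 library (largest edgeR adjusted p = 0.0106). Its paralog Birc2, the gene of cIAP1, stood at 13.5, 13.6 and 15.9 CPM in controls and 17.8, 16.2 and 17.0 CPM with treatment. The groups did not overlap, but the difference was small and was not called (log2 fold change 0.25 ± 0.15, edgeR adjusted p = 0.499). Xiap was not called either (-0.03 ± 0.32, edgeR adjusted p = 0.985). Summed over the 3 genes, this class went from 46.2, 42.9 and 51.1 CPM to 115.7, 126.4 and 144.1 CPM, and Birc3 made up most of the difference. Reads shared between Birc2 and Birc3 could have been split or dropped, since how reads mapping to several places were counted is not known here.

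Cflar (ENSPEMG00000022446, scaffold KI615370.1, bases 8351137 to 8401213, minus strand, 12 annotated exons), the gene of FLIP, stood at 5.74, 10.2 and 5.73 CPM in controls and at 16.8, 25.1 and 13.0 CPM with tunicamycin. Every treated library lay above every control, and BW35772 had the highest level in both groups. The log2 fold change of 1.35 ± 0.33 was not called in the fit that did not pair the animals (in edgeR, adjusted p = 0.091). Within the animals the differences were 1.54, 1.30 and 1.18 in log2 CPM, and the fit with the replicate block called it higher (in edgeR, adjusted p = 0.00576), as did DESeq2 (0.00198), while limma-voom did not (0.0888). With the block the call did not hold without both libraries of BW35770 (in edgeR, adjusted p = 0.108).

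No death receptor was called. Fas (ENSPEMG00000000158, scaffold KI615534.1, bases 471657 to 507385, minus strand) was nearest, at 17.5, 18.3 and 18.9 CPM in controls and 23.6, 29.6 and 26.9 CPM with tunicamycin. Its groups did not overlap, and the log2 fold change was 0.55 ± 0.14 (in edgeR, adjusted p = 0.103, and 0.0682 with the replicate block). DESeq2 called it higher (adjusted p = 0.00879), as did edgeR with the block when both libraries of BW35773 were left out (0.0452). A short RNA gene on the same strand inside Fas, FAS-AS1, had 2 to 6 counts in a library, against at least 669 for Fas. Tnfrsf1a, the main TNF receptor of fibroblasts, was the only tested member whose treated libraries all lay below the controls, at 218.1, 217.1 and 198.3 CPM against 196.6, 168.0 and 169.4 CPM. This difference was not called (log2 fold change -0.25 ± 0.12, edgeR adjusted p = 0.367). Tnfrsf12a, the receptor of the cytokine TWEAK, had the highest level of the receptors per kilobase of exon, though not in CPM. It stood at 141.2, 170.6 and 158.1 CPM in controls and 142.0, 148.5 and 213.5 CPM with treatment. Its groups overlapped, and the log2 fold change was 0.10 ± 0.18 (in edgeR, adjusted p = 0.873).

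Of the adaptors, Fadd stood at 7.82, 7.07 and 10.2 CPM in controls and 8.46, 21.6 and 12.8 CPM with tunicamycin. Most of the difference came from the treated library of BW35772. Its log2 fold change was 0.77 ± 0.34 (in edgeR, adjusted p = 0.338), and 0.36 without that library. Tradd, which links TNF receptor 1 to RIPK1, had a log2 fold change of -0.00 ± 0.13. Ripk1, the kinase that can switch this complex to death, was 27.4, 41.3 and 25.2 CPM with treatment against 30.05, 26.9 and 29.9 CPM in controls. It was higher in BW35772 only, and its log2 fold change of 0.11 ± 0.20 was not called (in edgeR, adjusted p = 0.876).

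In the other regulators, Trp53, the gene of p53, stood at 177.9, 176.5 and 155.5 CPM in controls and 213.9, 183.4 and 219.7 CPM with tunicamycin. The groups did not overlap, and the log2 fold change of 0.28 ± 0.12 was not called (in edgeR, adjusted p = 0.338). Dapk3, a death-associated kinase, had a log2 fold change of 0.24 ± 0.19 (in edgeR, adjusted p = 0.645). Tmbim6, the gene of the ER membrane protein BAX inhibitor 1, was at 209.7, 184.2 and 175.9 CPM in controls and 181.2, 189.9 and 152.3 CPM with treatment. It had a log2 fold change of -0.12 ± 0.13 (in edgeR, adjusted p = 0.761).

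Levels can be compared between genes only per length, here as control CPM per kilobase of annotated exon. On this scale Tmbim6 was the highest member, at 197.0, above 96.6% of all tested genes. Tnfrsf12a followed at 141.9, then Bax at 92.2, Tnfrsf1a at 90.6, Trp53 at 84.7, Bad at 58.5 and Dapk3 at 55.8. The survival gene Bcl2l1 was at 29.1 and the pore former Bak1 at 24.7. Lower still were Casp9 at 3.84, Cflar at 2.63, Casp8 at 1.74, Apaf1 at 1.62 and Bmf, the lowest tested member, at 1.03. With tunicamycin Birc3 moved from 9.06 to 39.2 on this scale, from rank 13 to rank 8 among the 27, and Casp8 from 1.74 to 6.27, from rank 25 to rank 19. Bbc3 moved from 4.45 to 10.1, from rank 18 to rank 13. The 3 genes that rose were thus of middle or low level in control cells.

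Seen within animals, 10 of the 27 tested members (37%) were higher in all 3 pairs, beside 20.7% of all tested genes, and 5 (18.5%) were lower in all 3, beside 21.7%. Groups did not overlap with tunicamycin higher for 8 members (29.6%, beside 12.3% of all tested genes) and with tunicamycin lower for 1 (3.7%, beside 9.98%). The remaining 12 members differed in sign between animals. For 14 of the 27 the SD over the 3 pairs was larger than the mean difference.

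**Figure D3:**
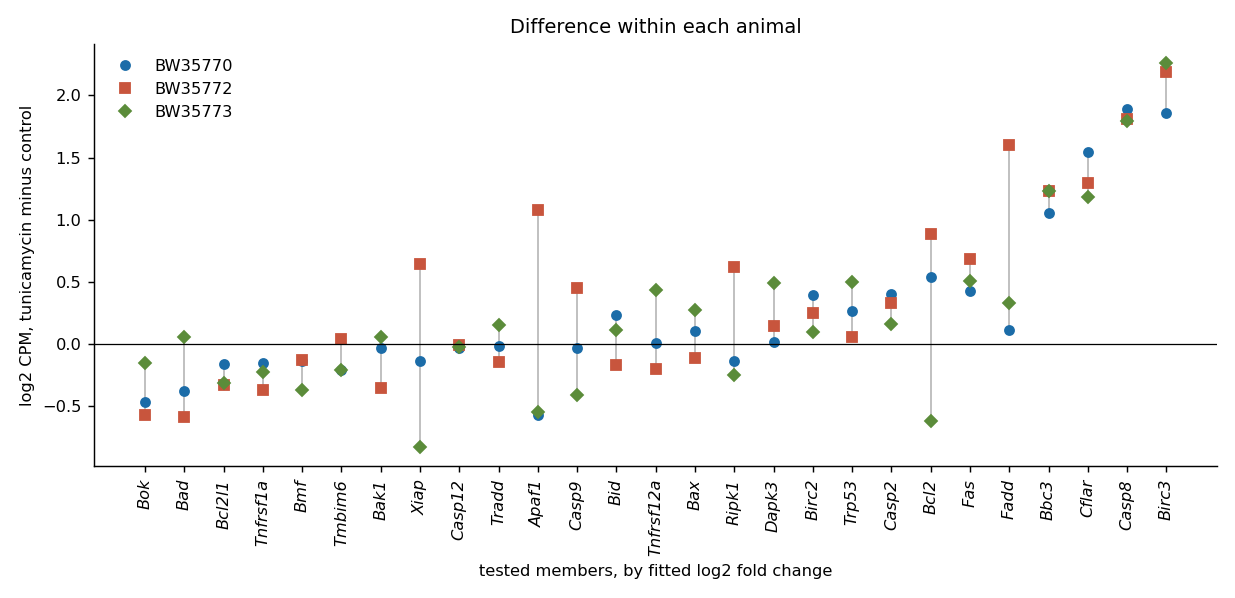
Difference in log2 CPM between the tunicamycin and control library of each animal (y axis) for the 27 tested members, ordered by fitted log2 fold change (x axis). Lines join the lowest and highest animal. Casp8 spans 1.80 to 1.89, whereas Apaf1 spans -0.57 to 1.08 and Xiap -0.83 to 0.65, with BW35772 at the top of both.

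Of the 12 members whose sign differed between animals, 8 had BW35772 opposite to both other animals (29.6% of tested members, beside 17.3% of all tested genes). Apaf1, Xiap, Ripk1 and Casp9 were higher in BW35772 alone, as was Tmbim6 by 0.04, while Bid, Bax and Tnfrsf12a were lower in it alone, with differences of -0.17, -0.11 and -0.20. In the other 4, Bad, Bak1, Bcl2 and Tradd, it was BW35773 (14.8%, beside 29.4%). Apaf1 was 1.08 higher in its treated library on the log2 CPM scale, and 0.57 and 0.55 lower in those of BW35770 and BW35773. Xiap gave differences of -0.13, 0.65 and -0.83, Ripk1 of -0.14, 0.62 and -0.25, and Casp9 of -0.03, 0.45 and -0.41, in the order BW35770, BW35772, BW35773. In BW35772, 10 of the 27 members had a difference above 0.5, beside 17.2% of all tested genes. In BW35770 and in BW35773 5 did, beside 13% and 14.4%. As each animal has 1 library of each kind, these differences between animals could not be tested.

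Differences also moved with gene length, in opposite directions between animals. Across the 13503 tested genes, which are not independent, Pearson's r of the within-animal difference with log2 exon length was 0.22 in BW35770, 0.30 in BW35772 and -0.19 in BW35773. The annotated exons of Apaf1, Ripk1 and Xiap sum to 4902, 4039 and 3628 bases, and those of Casp9 to 1380. When each library's trend with exon length was removed, Apaf1 still gave -0.70, 0.90 and -0.40, and Xiap -0.21, 0.52 and -0.75. Ripk1 and Tmbim6 also stayed higher in BW35772 alone. After removal Bax gave 0.32, 0.20 and 0.16, Bid 0.44, 0.13 and -0.002, and Tnfrsf12a 0.15, 0 and 0.34. None of these was then below 0 by any clear amount in BW35772. Casp9, at 0.04, 0.56 and -0.49, was still highest in BW35772, and only its small difference in BW35770 changed sign, from -0.03. The 3 called members were also called after that step, with edgeR adjusted p = 0.000756 for Birc3, 0.00301 for Casp8 and 0.0208 for Bbc3.

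Between animals, with treatment as a term in the fit, 0 of 27 members differed by edgeR or by limma-voom, beside 3.53% of all tested genes by edgeR. Without adjustment 2 had a p under 0.05 by either tool. Cflar had the smallest adjusted p (edgeR, 0.0964). Without the control of BW35772 1 member was called, Fadd, and without that of BW35773 there were 3: Cflar, Dapk3 and Tnfrsf12a.

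Some members are neighbours. Casp8 and Cflar lie on the same strand of 1 scaffold, 30964 bases apart, an arrangement also known from other mammals, and both were higher with treatment in each animal. The tested genes around them were not called. Als2cr12, 6526 bases from Casp8, had a log2 fold change of -0.04 and Trak2 of -0.21, while on the side of Cflar Ndufb3 had -0.57 and Fam126b 0.24. Birc2 and Birc3 lie 8173 bases apart on the same strand. Their differences within animals did not overlap, at 0.40, 0.25 and 0.10 in log2 CPM for Birc2 and 1.86, 2.19 and 2.26 for Birc3, and the difference between the genes was not tested. Yap1 and Tmem123, on either side of the pair, had log2 fold changes of 0.16 and -0.30 and were not called.

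**Figure D4:**
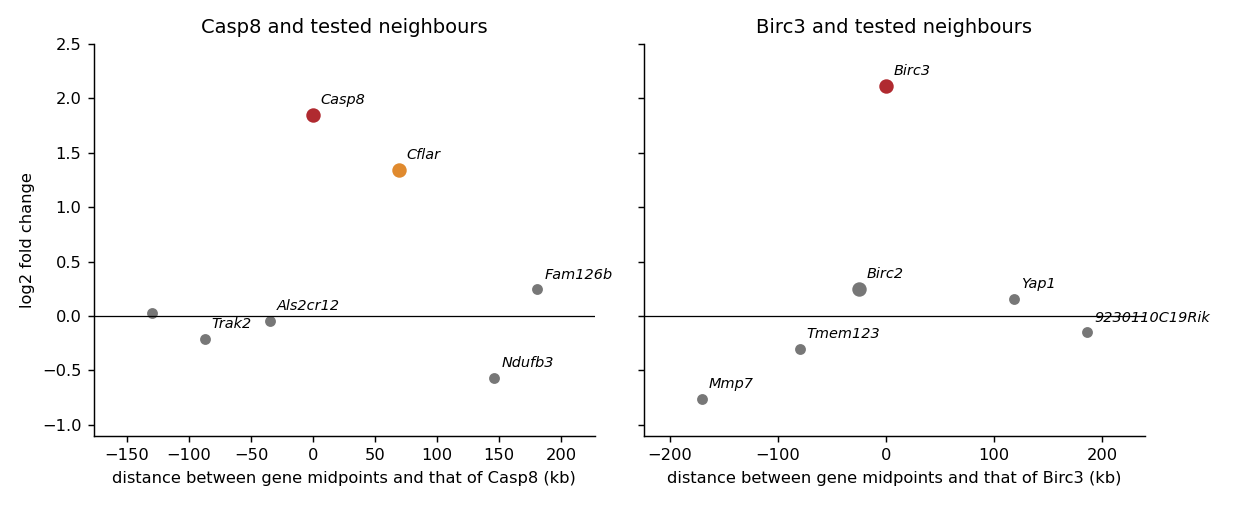
Log2 fold change (y axis) of tested genes against the distance of their midpoint from that of Casp8 (left) or Birc3 (right), in kb (x axis), for genes within 200000 bases. Red marks called genes, orange Cflar, which was called by edgeR only with the animal as a block. Casp8 and Cflar stand at 1.85 and 1.35 and Birc3 at 2.11, and all other genes lie between -0.76 and 0.25.

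Genes next to the members in the same pathways were read from 5 further lists. Of their 99 tested genes 14 rose and 1 fell, with a median log2 fold change of 0.06. Of all 13503 tested genes, for comparison with each list, edgeR called 1.78% higher and 0.792% lower. Before adjustment 1199 of the 13503 were higher and 896 lower at an edgeR p under 0.05, and DESeq2 called 676 higher and 401 lower. Among other caspases and executioners 0 of 12 were called by edgeR, 0 by limma-voom, and before adjustment 2 were higher and 1 lower at an edgeR p under 0.05. DESeq2 called 1 higher and 1 lower. Dffb, the nuclease that cuts DNA in apoptosis, was called higher with the replicate block and by DESeq2 (log2 fold change 0.80 ± 0.25, edgeR adjusted p = 0.173 without the block and 0.0347 with it, DESeq2 adjusted p = 0.0398), but not with the block without both libraries of BW35770 (0.414). In the list of BCL2 relatives and partners 0 of 13 were called by edgeR and 0 by limma-voom. Before adjustment 3 were higher and 1 lower at an edgeR p under 0.05, and DESeq2 called 0 higher and 1 lower. Bag3, a co-chaperone that binds BCL2, was called lower with the replicate block and by DESeq2 (-0.82 ± 0.18, edgeR adjusted p = 0.0624 without the block and 0.0192 with it, DESeq2 adjusted p = 0.0012), but not with the block without both libraries of BW35770 (0.0764).

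In the list of death ligands, TNF receptors and their signalling 3 of 27 rose and 0 fell, with 6 higher and 1 lower before adjustment (edgeR p under 0.05), and DESeq2 called 5 higher and 0 lower. Traf2, which brings cIAP1 and cIAP2 to the receptor and also binds the ER sensor IRE1, stood at 45.6, 46.3 and 42.2 CPM in controls and 94.1, 91.7 and 94.8 CPM with tunicamycin (log2 fold change 1.07 ± 0.10, edgeR adjusted p = 0.00321). Its call did not hold in the blocked fit without both libraries of BW35770 (0.068). Tnfaip3, which edits ubiquitin on RIPK1, rose by 1.78 ± 0.20 on the log2 scale (in edgeR, adjusted p = 0.00682), and not without the control of BW35772 (0.0601). Tab1, a partner of the kinase TAK1, rose by 1.09 ± 0.19 (in edgeR, adjusted p = 0.0333). Its call held in 1 of 6 fits without a library, that without the treated library of BW35773, and not in the others, where the edgeR adjusted p ran from 0.0659 to 0.18. It was also lost in the blocked fit without both libraries of BW35770 (0.225). The death ligands Tnf, Fasl and Tnfsf10 had 0 to 3 counts in a library and were not tested.

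Among p53 targets and regulators 4 of 24 rose and 1 fell. Sesn2, Ddit4, Siah1a and Plk2 rose, with log2 fold changes of 2.45, 1.601, 1.13 and 0.70, and Sesn2 and Ddit4 are also known targets of ATF4, the main factor of the integrated stress response. Trp53i13 fell by 0.91 ± 0.16 (in edgeR, adjusted p = 0.0333). Its call held only without the treated library of BW35773, and the edgeR adjusted p was 0.061 to 0.155 in the other fits without 1 library. Plk2 was not called when any 1 control was left out (in edgeR, adjusted p = 0.0987 for BW35770, 0.136 for BW35772 and 0.114 for BW35773), nor without the treated library of BW35770 (0.0713). Siah1a was not called without control BW35772 (0.0514) or control BW35773 (0.0502), and Ddit4 not without control BW35773 (0.0707). In the blocked fit without both libraries of BW35770, Plk2, Siah1a and Trp53i13 were not called (in edgeR, adjusted p = 0.25, 0.0916 and 0.258). Cdkn1a, the p21 gene and a classic p53 target, stood at 1424, 1615 and 1757 CPM in controls and 917.4, 979.0 and 1164 CPM with tunicamycin. Every treated library lay below every control. It was called lower with the replicate block and by DESeq2 (log2 fold change -0.65 ± 0.15, edgeR adjusted p = 0.0832 without the block and 0.0218 with it, DESeq2 adjusted p = 0.00205). Mdm4, an inhibitor of p53, was likewise called higher with the block and by DESeq2 (1.29 ± 0.33, edgeR adjusted p = 0.11 without the block and 0.0398 with it, DESeq2 adjusted p = 0.00534). With the block and without both libraries of BW35770, neither Cdkn1a nor Mdm4 was called (in edgeR, adjusted p = 0.358 and 0.23).

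In the list that links ER stress to death 8 of 24 rose and 0 fell, with 12 higher and 2 lower before adjustment (edgeR p under 0.05), and DESeq2 called 11 higher and 1 lower. The members of this list with the smallest p-values were Chac1 and Trib3, at log2 fold changes of 4.66 and 4.54, followed by Ddit3 and by Atf4 at 2.47. Traf2 is also in this list. The ER sensor kinases Ern1 and Eif2ak3 rose by 1.68 ± 0.19 and 1.54 ± 0.21 (in edgeR, adjusted p = 0.00604 and 0.0131). Ern1 was not called without control BW35772 or without control BW35773 (in edgeR, adjusted p = 0.0536 and 0.055). Eif2ak3 was not called when any 1 control was left out (in edgeR, adjusted p = 0.0562 for BW35770, 0.0863 for BW35772 and 0.0736 for BW35773), or in the blocked fit without both libraries of BW35770 (0.0706).

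**Figure D5:**
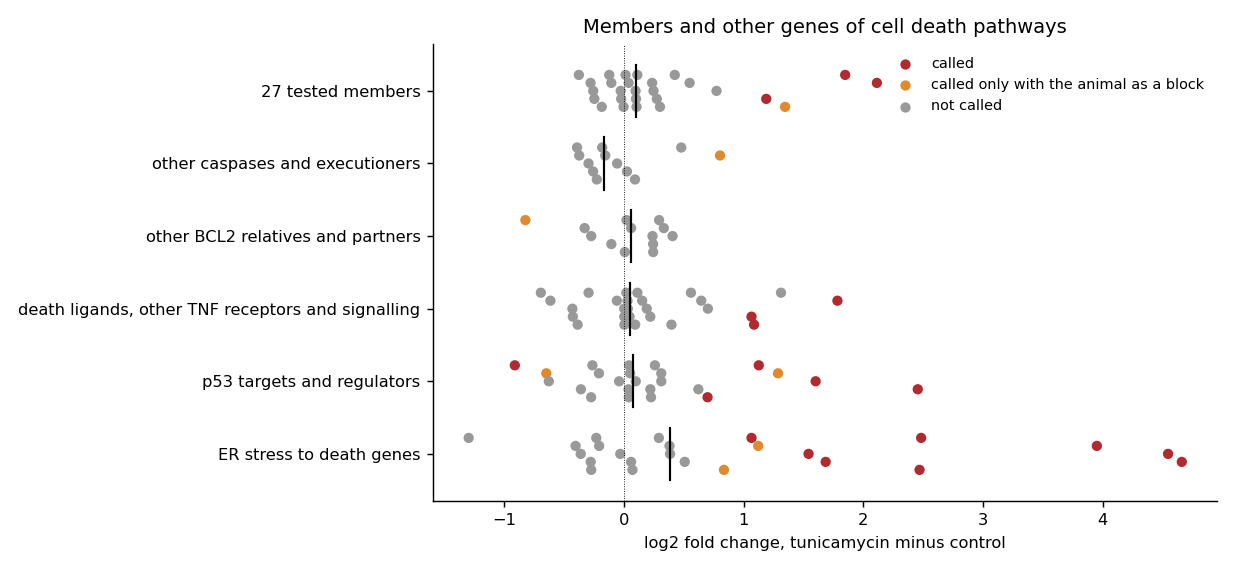
Log2 fold change (x axis) of the 27 tested members and of the tested genes of 5 further lists (y axis), 1 point a gene, spread vertically for legibility. Black bars are medians, red points were called by edgeR and orange points by edgeR only with the animal as a block. The lists of caspases and of BCL2 relatives have no red point, and the list on ER stress reaches 4.66.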

How the data were processed

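RNA was measured in 6 libraries, 1 control and 1 tunicamycin library from each of 3 animals. The deposited table holds raw read counts per gene, made with STAR 2.6.1, SAMtools 1.6 and featureCounts of Subread, per the submitters' processing notes. Libraries were directional, per the labels. The sources used here do not name the genome build, annotation release, strand setting or handling of multi-mapping reads. The table also holds each gene's summed exon bases, taken as deposited by the authors. Names come from the table alone, and no member's name sits on more than 1 ID. Coordinates are as deposited. No genome was supplied, so no sequence is shown.

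The test used edgeR 4.0.16 (R 4.3.3): filterByExpr (minimum count 10, minimum total 15), TMM scaling, glmQLFit and glmQLFTest, two-sided, Benjamini-Hochberg adjustment over 13503 genes, threshold 0.05. SE is the log2 fold change divided by the square root of F. Differences within animals use log2 CPM with a prior count of 2. Alternatives were other scalings and filters, DESeq2 1.42.0, limma-voom 3.58.1, the replicate block, leaving out libraries or animals and, chosen after seeing the data, a correction of every library for its trend with exon length (lowess, span 0.3). The edgeR fits with and without the replicate block were also run on simulated counts, which held no animal differences and no length trend. The other alternatives were not run on simulated data.

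Sample titles name the animal, which pairs the libraries. Deviations from group means correlated across genes at 0.66, 0.41 and 0.22 within animals BW35770, BW35772 and BW35773. Between animals they correlated at -0.45 to 0.13, the highest being control BW35773 with treated BW35772. No library was a copy of another (chi-square per degree of freedom 27.0 to 249.0 between pairs). All p-values rest on cultures of 3 animals, or fewer where an animal was left out. Without the block they rest on the spread among cultures within a group. With the animal as a term they rest on how far the treatment difference varied between animals.

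The members and lists were chosen with earlier results of these data known. Named genes are all members, with full values for those called with or without the block and, in each class, for the smallest p and the highest level, and in each further list the called genes, up to the 4 smallest p, with others added after their values were seen. Some genes of the further lists are not reported here by name.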

Additional observations from a re-analysis of the deposited data

How the results depend on the processing

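The calls for Birc3, Casp8 and Bbc3, 3 members higher and 0 lower, were the same with upper-quartile or RLE factors, without a filter, with a stricter filter (1 CPM in all libraries), in limma-voom and with exon length trends removed. DESeq2 gave 5 members higher, with Cflar and Fas added, as did removal of exon length trends with the replicate block (5). The replicate block alone gave 4, and it changed no call of a member other than Cflar. Leaving out libraries or animals gave 1 to 5 members higher and 0 to 1 lower, a median log2 fold change of members of 0.071 to 0.215, and 0 to 3 members that differed between animals. Over all genes, 241 higher and 107 lower became 676 and 401 with DESeq2, 415 and 324 with the replicate block, 300 and 199 with length trends removed, 728 and 752 with both, and 46 to 806 and 15 to 826 with libraries or animals left out. For the 5 further lists together, 14 higher and 1 lower became 22 and 6 with DESeq2 and with length trends removed under the block, 18 and 3 with the block, 14 and 3 with length trends removed, 14 and 2 without a filter, and 8 to 21 and 0 to 7 with libraries or animals left out. The fits of treatment against control without 1 library did not pair the animals. Of the blocked fits without 1 animal, that without BW35770 called the fewest genes over the whole table, 74 higher and 37 lower. Without BW35772 there were 497 and 451, and without BW35773 806 and 826. A call lost only without BW35770 is to be read beside these counts. The causes were not tested. Depth limits Pmaip1, Bik and the death ligands, which were too scarce to test.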
